A study of Mus musculus with 6 samples.

Results

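The complement genes described here are 9 of the 54232 genes counted by RNA-seq in primary oviductal smooth muscle cells of the mouse: C1qa, C1qb, C1qc, C1ra, C1s1, C2, C3, C4b and Serping1. They were taken by gene identifier because they belong to 1 pathway, and C1qb was included because it was much higher in the cells of the Pbrm1 cKO. Its difference between the groups, and those of its partner chains C1qa and C1qc, are therefore given as a description with no test. Oviducts were isolated on day 2 of pregnancy from mice 8 to 12 weeks old that had been mated with stud males. There were 3 libraries labelled WT and 3 labelled Pbrm1 cKO, with between 15390818 and 18947947 counts each. The cells were freed with trypsin, collagenase and dispase, filtered, plated for 4 h and for another 2 h after a change of medium, and lysed without a sort for any cell type. Pbrm1 encodes a subunit of the PBAF chromatin remodeling complex. In the cKO mice of the study floxed Pbrm1 was deleted by cre expressed from the progesterone receptor gene (PR-IRES-cre), so that the deletion follows past or present expression of that receptor and is not limited to muscle. The labels and the main text of the study call the controls of these cells WT, whereas a supplementary figure legend names Pbrm1 fl/fl mice. The control libraries, called WT here, may therefore carry the floxed alleles without cre. The labels do not tell whether a library came from 1 mouse or from pooled mice, and p-values then measure the spread between these libraries only. Pbrm1 itself fell to 26.0% of WT (175 ± 7.07 CPM in the WT and 45.6 ± 4.38 CPM in the cKO libraries, log2 fold change -1.94, edgeR adjusted p = 9.13e-11), where CPM is the count scaled to library size and every value after ± is the SD over the libraries of 1 group (n = 3).

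Complement is a cascade of plasma proteins that tags cells and debris. C1q, built from the products of C1qa, C1qb and C1qc, binds the target and is made above all by macrophages. It carries the proteases C1r and C1s. C1r activates C1s, which cleaves C4 and C2 to form an enzyme that cleaves C3. C1 inhibitor, the product of Serping1, removes C1r and C1s from the complex. Apart from C1q, these proteins come mainly from the liver, but fibroblasts and other stromal cells also make C1r, C1s, C3, C4 and C1 inhibitor.

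Most of the genes lie in clusters. On GRCm38 chromosome 4, C1qb (136880129 to 136886187), C1qc (136889804 to 136893065) and C1qa (136895917 to 136898803) follow one another on the minus strand within 18.7 kb. C1ra (124512405 to 124523443, plus strand) and C1s1 (124530345 to 124542359, minus strand) lie on chromosome 6 in a stretch of 143 kb that also holds their relatives C1rl, C1rb and C1s2. C2 and C4b are on chromosome 17 (34862604 to 34898265 and 34728380 to 34743882), as is C3 (57203970 to 57228136), and Serping1 is on chromosome 2 (84765387 to 84775444), these 4 all on the minus strand. The 250 bases before the annotated start were read from RefSeq (GRCm38.p6) for the 5 members listed there, C1qb, C1qc, C1ra, C1s1 and C3, and for 3 of the relatives, C1rl, C1rb and C1s2. The C1qb and C1qc windows are shown because these neighbouring genes were higher together, with matches to GAGGAA, a core bound by the macrophage factor PU.1, in capitals on either strand (C1qb, chr4:136886201-136886450, minus strand, and C1qc, chr4:136892915-136893164, minus strand).
C1qb: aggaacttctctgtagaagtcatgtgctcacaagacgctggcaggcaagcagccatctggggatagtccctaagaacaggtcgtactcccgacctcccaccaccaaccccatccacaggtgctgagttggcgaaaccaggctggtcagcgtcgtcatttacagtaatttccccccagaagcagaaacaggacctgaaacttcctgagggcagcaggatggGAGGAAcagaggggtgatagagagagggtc
C1qc: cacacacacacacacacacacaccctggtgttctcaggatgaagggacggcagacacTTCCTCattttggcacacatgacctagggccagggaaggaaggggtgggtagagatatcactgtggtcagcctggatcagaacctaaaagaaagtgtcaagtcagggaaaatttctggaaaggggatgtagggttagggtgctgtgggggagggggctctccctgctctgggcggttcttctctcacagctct
Each window held 1 match, 30 bases before the RefSeq start in C1qb and 193 bases before it in C1qc, where the match lies on the other strand. In the deposited table C1qc starts further upstream, at 136893065, so that part of its window lies inside the gene. C1qb starts slightly further downstream there, at 136886187, and the distances of the matches from the deposited starts are more alike. Of the 32851 promoter windows of the same length, 23.3% held this motif. A C/EBP site (TTGCNNAA, either strand, in 9.56% of windows) was found in C1s1, C3, C1rl and C1rb. RefSeq gives C1s1 a further start, and the window before that start (chr6:124542322-124542571) held no such site. Further motifs searched are not reported here.

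C1q transcripts were 2.38 to 3.63 times as abundant in cKO as in WT libraries. C1qa was at 42.2, 41.2 and 42.0 CPM in WT replicates 1, 2 and 3 and at 93.6, 97.7 and 107 CPM in cKO replicates 1, 2 and 3. C1qb was at 21.7, 22.7 and 24.0 CPM in WT and at 82.6, 81.5 and 83.7 CPM in cKO. C1qc was at 28.0, 24.3 and 25.7 CPM in WT and at 73.3, 73.2 and 72.7 CPM in cKO. All cKO libraries lay far above all WT libraries for each chain, and each of these values rests on at least 367 counts. Of all tested genes, 26.6% were likewise higher in every cKO library than in any WT library, and C1qb was chosen for its rise. The log2 fold changes were 1.25 for C1qa (SE 0.058), 1.86 for C1qb (SE 0.057) and 1.49 for C1qc (SE 0.061). Across 12 alternative fits they stayed between 1.20 and 1.29, 1.82 and 1.89, and 1.44 and 1.55. Summed over the chains, C1q amounted to 90.6 ± 2.10 CPM in WT and to 255 ± 7.21 CPM in cKO.

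**Figure D1:**
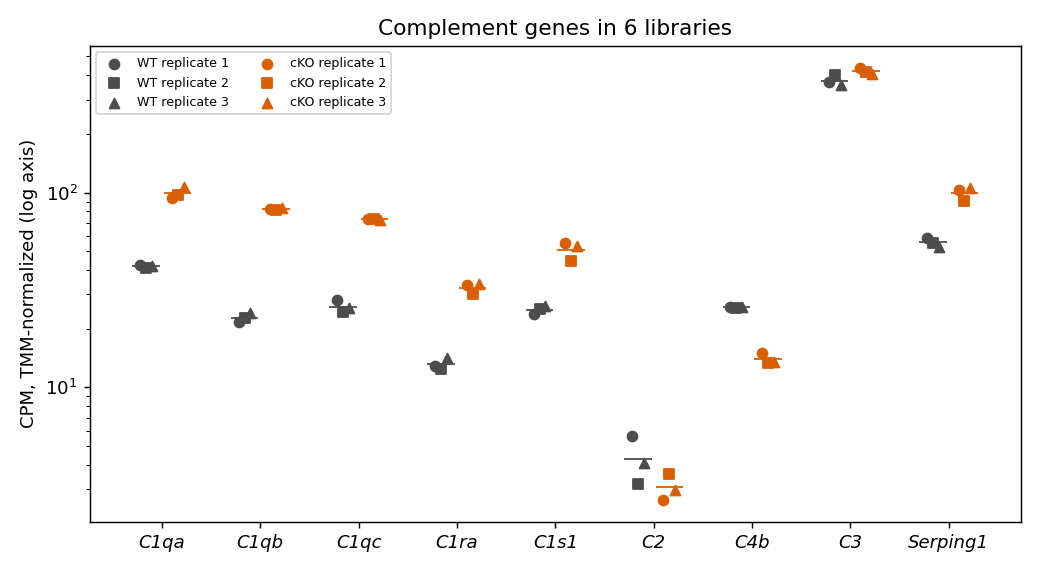
CPM on a log axis of the 9 complement genes in each of the 3 WT (grey) and 3 cKO (orange) libraries, with lines at the group means. The C1q chains, C1ra, C1s1 and Serping1 sit higher in all cKO libraries, C4b sits lower (14.0 against 25.9 CPM), C3 is nearly level and only C2 overlaps. Of all tested genes, 53.5% did not overlap between the groups.

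The chains were not higher by the same factor. Because C1qb was chosen for its rise in these libraries, a gain in its share was favoured by that choice and was not tested. Levels of different genes were compared per length as TPM, that is, as counts divided by the exon length of the gene in the deposited table and scaled to the same total in each library. C1qb made up 28.1% ± 1.36 of the summed C1q TPM in WT and 36.3% ± 0.912 in cKO, with WT libraries between 26.5% and 29.1% and cKO libraries between 35.4% and 37.2%. The share of C1qa was 53.9% ± 0.487 in WT and 45.6% ± 1.56 in cKO, and that of C1qc lay between 17.2% and 19.3% in WT and between 17.3% and 18.6% in cKO, with overlap. The protein holds the chains in equal numbers, and the unequal shares depend on the annotated exon lengths of 1040, 1088 and 1931 bases.

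Macrophage markers were measured beside C1q because the preparation was not sorted. All 16 markers were detected and tested, and 13 were higher in cKO with none lower at an edgeR adjusted p-value under 0.05, where 21.9% of the 15376 tested genes were called higher and 21.8% lower. The median log2 fold change of the markers was 0.66, against 0.0016 over all tested genes. In a bulk sample, more cells of a type and more RNA per cell cannot be told apart. The summed level of the markers ran from 856 to 906 CPM in WT and from 1233 to 1308 CPM in cKO, a 1.45-fold difference of means, while that of C1q was 2.82-fold. Lyz2, which encodes lysozyme, supplied 51.8% of the WT sum and went from 452 ± 24.7 to 620 ± 36.5 CPM (log2 fold change 0.46, SE 0.054, edgeR adjusted p = 1.49e-05). Ctss, a lysosomal protease gene, Csf1r, the receptor gene for the macrophage growth factor CSF1, and Adgre1, which encodes F4/80, had log2 fold changes of 0.41, 0.59 and 0.46. Only Mrc1 (1.64), Fcgr1 (1.43) and Cd163 (1.35) had larger log2 fold changes than C1qa, and no marker had a larger one than C1qb. These 3, a mannose receptor, an Fc receptor and a haemoglobin scavenger receptor, are named after their values were seen. Mertk (-0.09) and Cx3cr1 (0.43) did not pass the test (edgeR adjusted p = 0.516 and 0.187).

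Relative to the marker sum, C1q stood at 10.7%, 10.3% and 10.1% in WT replicates 1, 2 and 3 and at 20.2%, 19.3% and 21.0% in cKO replicates 1, 2 and 3. The groups were far apart on this measure as well. The log2 ratio was 0.96 higher in cKO (-3.27 ± 0.045 in WT and -2.31 ± 0.062 in cKO), and it was 0.94 higher when Csf1r, Adgre1, Cd68, Fcgr1 and Mertk alone made up the sum. For single chains the log2 ratio was higher by 0.71 for C1qa, 1.32 for C1qb and 0.96 for C1qc. Because C1qb was chosen on these libraries, no test was made of these differences. The part of macrophage number in them was not tested. Of 12 markers of other leukocytes, 9 did not pass the filter on low counts, with Ms4a1 at 0 in every library, against a floor of 3 counts per library (0.158 to 0.195 CPM). Kit, a mast cell marker that other cell types also express, supplied most of the summed level of 4.74 to 6.74 CPM, at 3.34 ± 0.376 CPM in WT and at 4.53 ± 0.249 CPM in cKO, and was the only marker of this list called (log2 fold change 0.44, edgeR adjusted p = 0.0297). S100a8, a neutrophil marker, had 10, 24 and 11 counts in WT and 4, 9 and 9 in cKO and did not pass (edgeR adjusted p = 0.079).

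**Figure D2:**
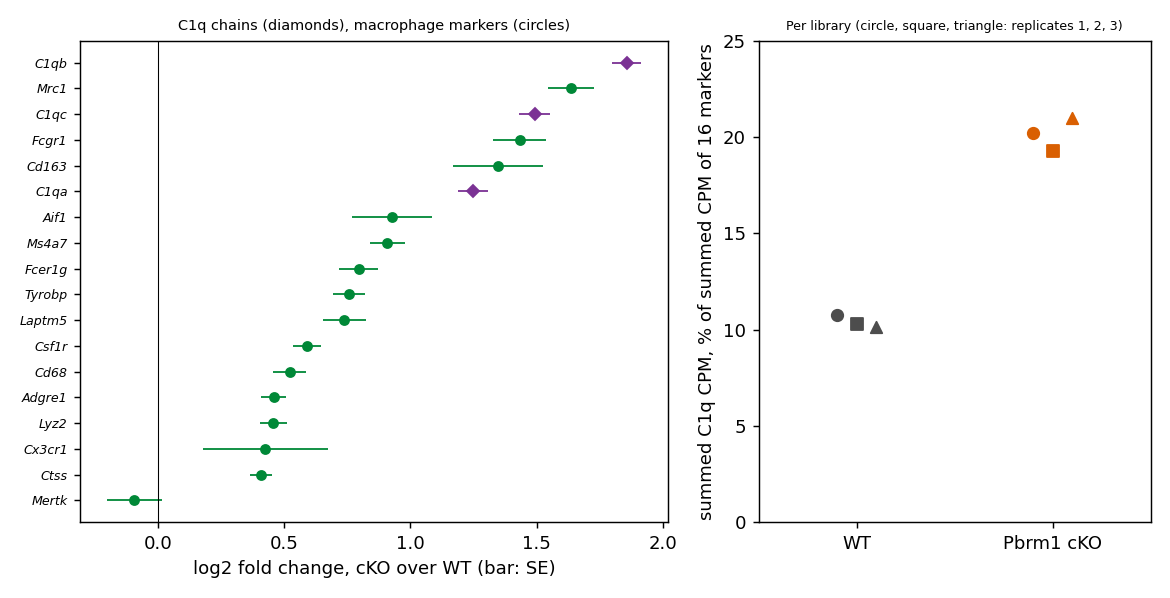
Left, log2 fold change in cKO over WT with SE for the 3 C1q chains (diamonds) and 15 of the 16 macrophage markers (circles), from -0.09 for Mertk to 1.86 for C1qb. Right, summed C1q CPM as a percentage of the summed CPM of the 16 markers in each library, between 10.1% and 10.7% in WT and between 19.3% and 21.0% in cKO.

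Among the 5 genes whose profiles over the 6 libraries were most like the mean profile of the C1q chains, by Euclidean distance between log2 CPM centred on the mean of each gene, are Fut2 (distance 0.194), Atp10b (0.199), Lsp1 (0.204) and C5ar1 (0.221), with 13944 genes compared. C5ar1 encodes the main receptor for the complement fragment C5a. Lsp1 went from 29.9 ± 0.281 to 78.4 ± 2.92 CPM. The closest profiles belonged to genes at lower levels. Fut2 went from 1.10 ± 0.0397 to 3.85 ± 0.374 CPM and Atp10b from 2.98 ± 0.256 to 9.68 ± 0.247 CPM. With only 2 groups of libraries, this likeness mostly reflects a similar size of difference.

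Of the 6 members outside C1q, 4 rose, 1 fell and 1 did not pass the test at an edgeR adjusted p-value under 0.05, where 43.7% of all tested genes were called. All 9 members passed the filter on low counts. C1ra, which encodes the protease that activates C1s, was at 12.8, 12.4 and 14.1 CPM in WT and at 33.4, 30.0 and 33.8 CPM in cKO (log2 fold change 1.30, SE 0.080, edgeR adjusted p = 4.41e-08). C1s1, which encodes the protease that cleaves C4 and C2, was at 23.7, 25.4 and 26.0 CPM in WT and at 55.3, 44.7 and 53.1 CPM in cKO (log2 fold change 1.02, SE 0.081, edgeR adjusted p = 4.11e-07). Both protease genes were thus at least 1.78 times the WT mean in every cKO library. Serping1, the gene of their inhibitor, was at 58.7, 55.1 and 52.6 CPM in WT and at 103, 90.1 and 105 CPM in cKO (log2 fold change 0.84, SE 0.065, edgeR adjusted p = 3.35e-07).

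C4b, which encodes the substrate of C1s, fell by 0.88 on the log2 scale. It was at 26.0, 25.7 and 26.0 CPM in WT and at 15.0, 13.4 and 13.6 CPM in cKO (SE 0.076, edgeR adjusted p = 8.9e-07), or 54.1% of WT, with no overlap between the groups. C2, the other C1s substrate, was at 5.61, 3.20 and 4.09 CPM in WT and at 2.64, 3.60 and 2.96 CPM in cKO, so that the groups overlapped (log2 fold change -0.47, SE 0.21, edgeR adjusted p = 0.0826). It did pass without WT replicate 2 (log2 fold change -0.66, edgeR adjusted p = 0.0237) and without cKO replicate 2 (-0.61, 0.0373). Without WT replicate 1, the library with the highest level, the log2 fold change of C2 shrank to -0.24 (edgeR adjusted p = 0.383). Without cKO replicate 1 it was -0.37 (edgeR adjusted p = 0.245). A readthrough gene, Gm20547, covers 42.8% of the exon bases of C2 on the same strand, and reads in the shared part were left out by the counting, so that C2 is undercounted in every library.

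C3, the central component on which the pathways meet, differed little. It was at 372, 400 and 357 CPM in WT and at 439, 417 and 405 CPM in cKO, and the lowest cKO library was only just above the highest WT library. The log2 fold change of 0.16 (SE 0.051, edgeR adjusted p = 0.0213) did not pass the threshold without WT replicate 1, WT replicate 3 or cKO replicate 1 (edgeR adjusted p = 0.0731, 0.111 and 0.104). Among the 6 members outside C1q, the libraries of both groups were fully separated for 5, with 4 higher and 1 lower in cKO, where 53.5% of all tested genes were separated (26.6% higher and 26.9% lower). C2 was the exception.

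Per length, C3 was the most abundant member in WT at 232 ± 13.4 TPM, followed by C1qa at 127 ± 1.58 TPM, Serping1 at 75.7 ± 4.03 TPM, C1qb at 66.4 ± 3.46 TPM, C1qc at 42.7 ± 3.04 TPM and C1s1 at 25.4 ± 1.24 TPM. C4b (14.3 to 14.5 TPM) and C1ra (13.2 to 15.0 TPM) overlapped in WT, and C2 was lowest at 3.52 ± 0.989 TPM. In cKO the order began with C1qa at 298 ± 18.6 TPM, above C3 at 255 ± 12.0 TPM and C1qb at 237 ± 3.21 TPM, and C4b at 7.67 ± 0.545 TPM stood below C1ra at 33.9 ± 2.19 TPM. The remaining neighbours in either order did not overlap between libraries. TPM do not correct for reads left uncounted on stretches shared with other genes, which affect C1ra, C1s1, C4b and C2 unequally. The places of these genes in the orders are therefore less certain than the spread between libraries shows.

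C1ra, C1s1 and C4b each have a close relative that moved differently or at a much lower level. Of all 50-base windows in annotated transcripts, C1ra shares 48.0% with C1rb, C1s1 shares 21.8% with C1s2 and C4b shares 34.6% with C4a, and reads from such stretches map to both genes and were not counted. C1rb had 11, 17 and 15 counts in WT and 6, 4 and 5 in cKO (log2 fold change -1.48, SE 0.38, edgeR adjusted p = 0.00649). C1s2 had 17, 15 and 15 counts in WT and 2, 3 and 0 in cKO (log2 fold change -3.13, SE 0.53, edgeR adjusted p = 0.000335). Both were thus lower in cKO while C1ra and C1s1, which lie beside them, were higher. C4a had 40, 19 and 29 counts in WT and 12, 11 and 14 in cKO (log2 fold change -1.23, SE 0.34, edgeR adjusted p = 0.0103), a call that was lost without WT replicate 1 (0.0639). C1rl, at 1.17 CPM in WT and at 2.18 CPM in cKO, had a log2 fold change of 0.89 (edgeR adjusted p = 0.0387) that passed in 7 of 12 alternatives but not in DESeq2 (adjusted p = 0.0515). Counts this low leave wide errors, and the division of reads between relatives adds an uncertainty that these SE do not hold.

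The upstream windows of C1ra and C1rb are shown because they carry a shared block at different distances from the annotated starts, given in capitals (C1ra, chr6:124512371-124512620, plus strand, and C1rb, chr6:124570180-124570429, plus strand, RefSeq, GRCm38.p6).
C1ra: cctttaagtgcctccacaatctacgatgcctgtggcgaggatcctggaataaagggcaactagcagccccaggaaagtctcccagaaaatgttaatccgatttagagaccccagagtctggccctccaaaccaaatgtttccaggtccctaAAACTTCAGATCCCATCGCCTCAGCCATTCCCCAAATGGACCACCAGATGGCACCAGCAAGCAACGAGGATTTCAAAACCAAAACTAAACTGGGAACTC
C1rb: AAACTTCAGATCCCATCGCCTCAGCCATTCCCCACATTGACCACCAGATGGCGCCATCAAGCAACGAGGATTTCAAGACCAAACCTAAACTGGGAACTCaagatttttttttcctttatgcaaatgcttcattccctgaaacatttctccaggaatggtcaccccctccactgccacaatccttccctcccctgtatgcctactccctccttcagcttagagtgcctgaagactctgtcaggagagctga
The block of 99 bases matched at 93 positions (93.9%). It ended at the start of C1ra and lay 250 to 152 bases before that of C1rb, and it reached the edge of both windows, so that it may extend further. These starts are those of RefSeq. In the deposited table C1ra starts further upstream, so that its block lies inside the gene, and C1rb starts between its block and the RefSeq start.

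In the wider pathway, 48 other genes were listed by role. Of these 29 passed the filter on low counts, 16 were higher and 5 lower in cKO by edgeR, and 8 did not pass the test, with a median log2 fold change of 0.57. Over all tested genes 21.9% were called higher and 21.8% lower, and 43.7% were called in either direction, which is the background for the counts of each role and of each marker list. Groups were fully separated for 21 of the 29, as they were for 53.5% of all tested genes.

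**Figure D3:**
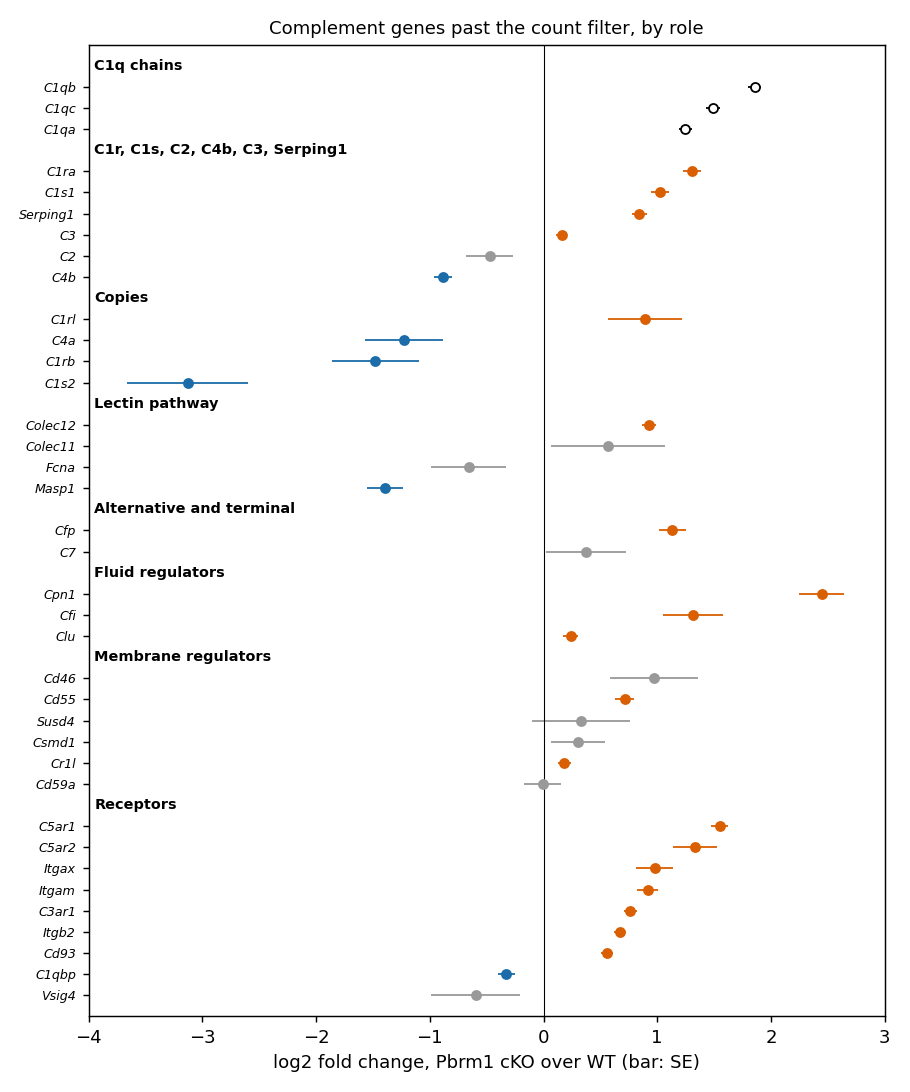
Log2 fold change in cKO over WT with SE for the complement genes described here, grouped by role. Orange marks genes higher and blue those lower at an edgeR adjusted p-value under 0.05, grey those that did not pass, and open circles the C1q chains, for which no test is given. Copies are the relatives C1rl, C4a, C1rb and C1s2, and the values run from -3.13 for C1s2 to 2.45 for Cpn1.

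Of 9 tested receptor genes 7 were higher and 1 was lower. C5ar1 was at 18.3, 18.4 and 17.6 CPM in WT and at 57.1, 52.7 and 48.8 CPM in cKO (log2 fold change 1.55, SE 0.071, edgeR adjusted p = 2.75e-09). C5ar2, the second C5a receptor (1.33), and C3ar1, the receptor for C3a (0.76), were higher as well. Itgam (0.92), Itgax (0.98) and Itgb2 (0.67), the chains of the integrins known as complement receptors 3 and 4, and Cd93 (0.56), once described as a C1q receptor, rose too. Except for Cd93, which endothelial cells also express, these genes are known mainly from leukocytes, and the summed level of the other 6 went from 121 ± 1.40 to 227 ± 7.79 CPM. Another gene on the same strand, Gm49368, covers 68.7% of the exon bases of Itgam, so its level is understated. C1qbp, a mitochondrial protein gene first found as a C1q binder, fell by 0.33 (edgeR adjusted p = 0.00363). Vsig4, a C3b receptor of resident macrophages, was at 0.813 CPM in WT and at 0.534 CPM in cKO and did not pass (edgeR adjusted p = 0.241), and Cr2, the B cell receptor for C3d, was at 0 in every library.

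Among fluid regulators, all 4 that could be tested were higher. Cfi, the protease that inactivates C3b and C4b, rose at a low level, from 0.773 ± 0.132 to 1.95 ± 0.344 CPM (log2 fold change 1.31, SE 0.26, edgeR adjusted p = 0.00118). Cpn1, the catalytic chain of the enzyme that trims C3a and C5a, had the largest increase of the wider list, from 0.964 ± 0.177 to 5.31 ± 0.512 CPM (log2 fold change 2.45, SE 0.20, edgeR adjusted p = 4.47e-07), while its partner chain Cpn2 did not pass the filter. Clu, which encodes clusterin, had the most counts of these, with 197 ± 16.4 CPM in WT against 233 CPM in cKO (log2 fold change 0.24, edgeR adjusted p = 0.0104), but did not pass without WT replicate 1 (0.0613) or without cKO replicate 1 (0.0552).

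Of 6 tested membrane regulators, 2 rose and 4 did not pass the test, a share of calls not above the 43.7% of all genes. Cd55, which speeds the decay of C3-cleaving enzymes, rose from 19.5 ± 1.87 to 32.0 ± 1.99 CPM (log2 fold change 0.71, SE 0.082, edgeR adjusted p = 1.2e-05). Cr1l, the rodent regulator Crry, had a log2 fold change of 0.18 (edgeR adjusted p = 0.022) and did not pass in 5 of 12 alternatives, DESeq2 included (adjusted p = 0.0537). Cd46, which helps factor I cleave C3b, was at 0.649 ± 0.258 CPM in WT and at 1.30 ± 0.599 CPM in cKO and did not pass (edgeR adjusted p = 0.0548). Cd59a, which blocks the membrane attack complex, was at 3.92 ± 0.653 CPM in WT and at 3.91 ± 0.307 CPM in cKO (log2 fold change -0.01, SE 0.16, edgeR adjusted p = 0.98).

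In the lectin pathway 1 gene rose and 1 fell of 4 tested, a share close to the 43.7% of all genes. Colec12, a scavenger receptor that can bind microbes and start complement, went from 127 ± 0.736 to 242 ± 25.3 CPM (log2 fold change 0.93, SE 0.064, edgeR adjusted p = 1.39e-07). Masp1, the protease that plays the part of C1r beside mannose-binding lectin, was at 10.6, 14.9 and 16.3 CPM in WT and at 5.78, 4.45 and 5.72 CPM in cKO (log2 fold change -1.40, SE 0.16, edgeR adjusted p = 1.21e-05). C1ra and Masp1, which belong to 1 protease family, thus moved in opposite directions. Mbl1, Mbl2, Fcnb and Colec10, whose products recognize sugars, were at 0 in every library.

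In the alternative pathway only Cfp, which encodes properdin, a leukocyte protein that stabilizes C3-cleaving enzymes, could be tested. It rose from 10.1 ± 1.55 to 22.3 ± 2.53 CPM (log2 fold change 1.13, SE 0.11, edgeR adjusted p = 3.81e-06). Cfb, the protease gene of this pathway, had between 4 and 7 counts per library, but 79.5% of its exon bases are covered by Gm20547, which itself had 0 counts, so that its level was not measurable here. Of the 7 genes for terminal components, C7 alone passed the filter, at 0.716 ± 0.215 CPM in WT and at 0.919 ± 0.321 CPM in cKO (edgeR adjusted p = 0.42), and C8b was at 0 in every library.

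Interferon is known to raise the expression of several complement genes, and 15 genes that respond to it were measured for that reason. Of these 14 were higher in cKO and none lower by edgeR (21.9% and 21.8% of all tested genes), with a median log2 fold change of 1.29, and their summed level was 284, 271 and 279 CPM in WT replicates 1, 2 and 3 and 773, 545 and 801 CPM in cKO replicates 1, 2 and 3. The 4 with the highest mean CPM over the 6 libraries, a measure that does not correct for gene length, were Bst2 (log2 fold change 1.45), Irf9 (1.29), Irf7 (1.17) and Tap1 (0.94), and all rose. Each of the 15 genes was lowest in replicate 2 among the cKO libraries, as were 36.6% of all tested genes. The same library was lowest of the cKO libraries for C1ra, C1s1 and Serping1, at 89.5%, 82.4% and 86.4% of the mean of the other two. It was also lowest for C4b (93.7%) and, by little, for C1qb (98.0%). For C3 it was at 98.9% of that mean, for the C1q sum at 98.5% and for the macrophage markers at 105%. The lower level in this library was not limited to interferon and complement genes. The sum of the fibroblast markers was at 93.5% of that mean and that of the epithelial markers at 91.1%. Smooth muscle markers summed to 5162, 4623 and 5229 CPM in cKO replicates 1, 2 and 3. Pbrm1 was highest in cKO replicate 2, at 43.4, 50.6 and 42.7 CPM in the same order. Relative to WT, Serping1 was 1.88-fold in cKO replicates 1 and 3 and 1.62-fold in replicate 2, and C1s1 was 2.16-fold and 1.78-fold, so that the increases were present in all cKO libraries. What interferon response contributed was not tested.

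**Figure D4:**
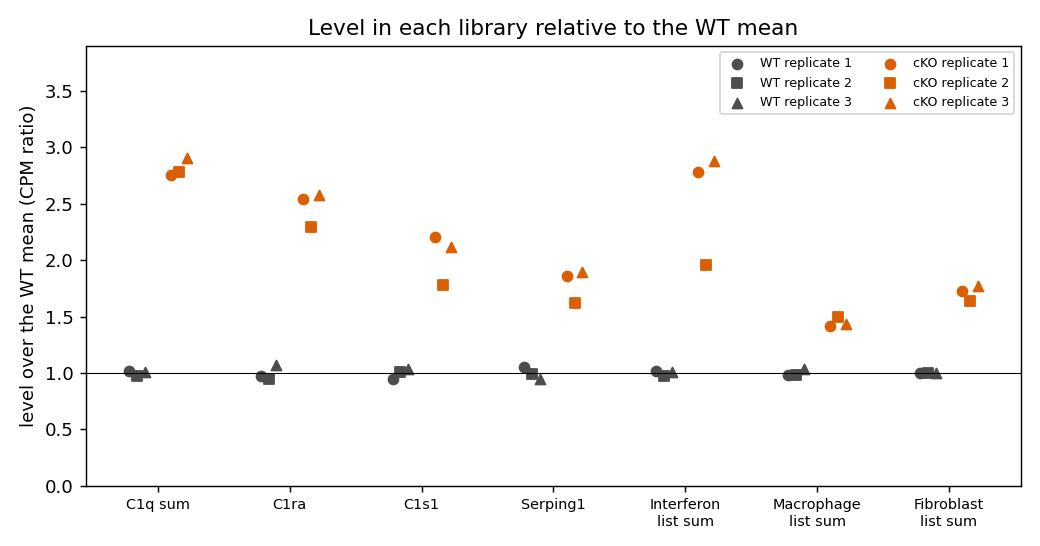
Level in each library divided by the WT mean, as a ratio of CPM, for the C1q sum, 3 complement genes outside C1q and 3 list sums. Replicate 2 (square) is the lowest cKO library for C1ra, C1s1, Serping1 and the interferon and fibroblast sums, at 1.96 for the interferon sum, but not for C1q or the macrophage sum.

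Markers of cells that could make the components outside C1q were also examined. The background for each list is the 43.7% of all tested genes that were called (21.9% higher and 21.8% lower). The 10 smooth muscle markers all passed the filter, with Acta2 at 1285 ± 33.5 CPM in WT and at 1534 ± 131 CPM in cKO, and 6 were higher and 1 lower in cKO by edgeR. Their summed level ran from 3666 to 3748 CPM in WT and from 4623 to 5229 CPM in cKO, a 1.35-fold difference (median log2 fold change 0.29). Of 10 tested fibroblast markers 8 were higher and 1 lower (median log2 fold change 0.76), with Pdgfra at 746 ± 12.3 and 1317 ± 39.1 CPM, Dcn at 266 ± 10.8 and 501 ± 30.8 CPM and Gsn at 416 ± 12.8 and 620 ± 35.3 CPM. The marker that fell was Dpt, which encodes the matrix protein dermatopontin, from 53.4 ± 3.62 to 34.0 ± 4.90 CPM (log2 fold change -0.65, SE 0.089, edgeR adjusted p = 5.56e-05). The summed fibroblast level ran from 1716 to 1728 CPM in WT and from 2816 to 3047 CPM in cKO, a 1.71-fold difference, beside 2.47-fold for C1ra, 2.04-fold for C1s1, 1.79-fold for Serping1 and 1.12-fold for C3, while C4b was at 54.1% of WT. Epithelial markers were present too, at 849 to 920 CPM in WT and 1033 to 1149 CPM in cKO, with 8 of 10 higher and none lower (median 0.29). The corresponding counts were 2 higher and 1 lower of 8 for endothelial markers (sum 351 to 372 CPM in WT, 297 to 307 CPM in cKO, median 0.05) and 1 higher and 3 lower of 6 for mesothelial markers (325 to 335 CPM and 349 to 380 CPM, median -0.21). The part of cell makeup in the levels of the complement genes outside C1q was not tested.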

How the data were processed

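The authors deposited raw read counts of the 6 libraries in 1 table. Per the file headers it was made with featureCounts 1.6.4 in reverse-stranded mode with the GENCODE M18 annotation, and the submitters' processing notes name cutadapt, HISAT2 and GRCm38.p5. With these settings multiply mapped reads and reads on overlapping genes of 1 strand are not counted. Gene symbols from GENCODE M21 matched 99.7% of the 54232 genes.

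Counts were tested with edgeR 4.0.16 (quasi-likelihood, two-sided) in R 4.3.3 after TMM scaling and filterByExpr, adjusted by Benjamini-Hochberg over 15376 genes, with a threshold of 0.05. CPM use the same scaling, and SE is the log2 fold change over the square root of F. TPM were computed from the counts and the deposited exon lengths. On counts simulated with a common dispersion, the test recovered 200 of 200 genes changed 2-fold, with 4 false calls among 15353. The changed genes were drawn from those above 5 CPM, so that recovery at lower levels was not measured. Replicates differed by more than sampling noise (chi-square per gene 1.28 to 1.58). The floor of 3 counts covers counting error only. The members, gene lists and the rule for naming genes were chosen with earlier results of these data known. That rule took the 9 members, the 4 relatives, up to 16 called genes of the wider lists by size of change, those at 50 CPM or more, the 4 with the highest mean CPM of other lists where values are given, and the 5 profiles most like C1q at 1 CPM or more. Genes named outside it were chosen after their values were seen. Some genes of the lists enter the counts and sums but are not reported here by name. Alternatives were DESeq2 1.42.0, other scalings and filters, a threshold of 0.01, a replicate block and leaving out each library.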

Additional observations from a re-analysis of the deposited data

How the results depend on the processing

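Total counts of calls stayed within 1.5 times of the values in the report under every alternative run, but counts of lower calls did not. Lower calls in the wider complement list went from 5 to 3 with at least 10 counts in every library, where C1rb and C1s2 could not be tested. Lower calls among members outside C1q went from 1 to 2 with no filter on low counts, without WT replicate 2 and without cKO replicate 2, in each case by the addition of C2. Over all genes 6723 calls became 5535 with DESeq2 and 4665 at a threshold of 0.01. Members outside C1q gave 4 to 6 calls, the wider complement list 17 to 23 and the macrophage markers 13 or 14. The difference in the log2 ratio of C1q to macrophage markers was 0.84 with means of log2(CPM + 0.5) in place of sums, smaller than 0.96 by more than the spread between replicates; the cause was not tested. Without single libraries it ran from 0.93 to 0.99. Among 31 named genes followed over 370 values none changed direction, and 6 genes changed their call in 19 values, 16 weaker and 3 stronger: C1rl, Cr1l, C3, C2, Clu and C4a. C2 also passed with no filter on low counts (adjusted p = 0.0256). Libraries with the same replicate number did not deviate together (correlations of deviations -0.0243, 0.0353 and 0.0928). With the replicate block 6908 genes were called, among them 6617 of those called without it, 5 of the 6 members outside C1q, 21 wider complement genes and 13 macrophage markers, and no call of a named gene changed. Depth limits genes near 1 CPM, such as C1s2, C1rb and Cfi.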
